A study of Canis lupus familiaris with 7 samples.

Results

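The 10 genes described here encode transcription factors that pattern limbs and skeleton: the homeobox genes *MSX1*, *MSX2*, *DLX3*, *DLX5*, *DLX6*, *PITX1* and *SHOX2*, the T-box genes *TBX4* and *TBX5*, and the forkhead gene *FOXF1*. They were taken by symbol from the deposited expression table, where 10 of 10 were found among 24580 genes. RNA had been sequenced from dog tissue, namely 3 OSA tumor samples (T1, T3 and T10; OSA is osteosarcoma, a bone-forming tumor) and 4 non-tumor samples of grossly non-malignant bone next to a tumor (N1, N3, N8 and N9), taken at amputation or after euthanasia. The labels give no treatment, breed, age, sex, bone or limb for any sample. Values are FPKM, fragments scaled to transcript length and to the number of mapped fragments, so levels of different genes can be set side by side. A value of 0 in this table can be a failed estimate and is written below as listed at 0: the muscle gene *CKM* was listed at 0 in N9, where the muscle gene *MYL1* was at 11047 FPKM.

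In the embryo, *TBX5* starts the outgrowth of the forelimb, while *PITX1* and its target *TBX4* do so in the hindlimb and give it its form, and traces of this code persist in adult limb tissue. *DLX5* and *DLX6* lie side by side and promote the formation of bone and cartilage, in part by turning on the osteoblast regulators *RUNX2* and *SP7*. *MSX1* and *MSX2* are repressors induced by bone morphogenetic proteins (BMPs) that keep precursor cells from maturing too early. *DLX3* acts in teeth, hair and bone, *SHOX2* in the upper segment of the limb skeleton, and *FOXF1* in the mesenchyme of lung and gut, where it is a target of hedgehog signalling.

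The samples of the non-tumor group differed from each other. The 9 skeletal muscle markers found, of 10 listed, summed to 94451 FPKM in N8 and 64477 in N9, to 1306 in N3 and 83.0 in N1, and to between 6.22 and 12.8 in OSA tumor. *CKM*, listed at 0 in N9, gave 35044 FPKM of the sum in N8, so the order of N8 and N9 rests on it. The 7 erythroid marrow markers found, of 8, summed to 7.02 FPKM in N1, 184 in N9, 2891 in N3 and 4412 in N8, against 3.61 to 77.1 in OSA tumor. The 9 osteoblast markers found, of 10, summed to 162 FPKM in N8, 504 in N9, 1723 in N3 and 7471 in N1, against 1962 to 12761 in OSA tumor. N1 therefore held little muscle or marrow RNA and osteoblast RNA within the range of the tumor samples, and N8 and N9 held by far the most muscle RNA. N1 and T1 stood within a factor of 2 of each other in 83.0% of the 13507 genes tested, where the other pairs of samples reached 41.2% to 62.4%. Results are therefore also given without N1 and without N8 and N9. In pieces of tissue, fewer cells of a type and less RNA per cell cannot be told apart.

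Tumor was compared with non-tumor on log2(FPKM + 1) by limma's moderated test over every gene whose mean reached 1 FPKM. Of the 10 genes, 9 passed this filter and *TBX4* did not. A gene was called when it changed by a factor of 2 or more and its unadjusted p was under 0.05, as in the methods of the study. By this rule *MSX2*, *DLX5*, *DLX6*, *SHOX2* and *FOXF1* rose in OSA tumor and 0 of the 9 fell. Across all tested genes 3.28% were called higher and 3.58% lower. The median log2 fold change of the 9 was 1.90, against -0.02 over all tested genes. *FOXF1* had a non-tumor mean under 1 FPKM and so passed the filter through its tumor values alone. The 10 genes were also chosen with earlier results of these data known. The study, on the same samples, lists *MSX2* and *FOXF1* among its top genes higher in OSA. The count and median over the 9 are therefore a description. An adjusted p under 0.05 was reached by 0 of the 10 and by 0 of all 13507 genes by limma, where 927 genes had an unadjusted p under 0.05 and the smallest adjusted p was 0.693. After rescaling all samples to a common FPKM sum, 271 genes were called higher and 493 lower in place of 443 and 483, the median over all genes was 0.12, and 4 of the 9 were called, *DLX6* being lost. Nothing in the labels states that samples of a group came from different dogs, so p-values measure the spread between these samples only, and fold changes on this scale understate those of genes at low levels.

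The calls depended on single samples. Of the 9, 2 were called without N8, N9, T3 or T10, where 319, 687, 603 and 424 of all 13507 genes were called, and 3 without N3 or T1, where 884 and 1214 were called. Without both N8 and N9, an alternative chosen after seeing the data, 0 of the 9 genes were called by limma and 0 had an unadjusted p under 0.05, beside 1.36% of all tested genes called in either direction and 0.600% called higher; the log2 fold changes were 2.14 for *MSX2*, 1.85 for *FOXF1*, 1.29 for *SHOX2*, 0.88 for *DLX5* and 0.72 for *DLX6*. Without N1, 7 of the 9 were called higher, *DLX3* and *TBX5* being added, where 6.31% of all tested genes were called higher and 14.8% in either direction. In 7 of the 10 genes N8 and N9 were the lowest samples of all, and in 8 N1 was the highest non-tumor sample. N8 and N9 were within a factor of 2 of each other in 8 of the 10 genes, beside 56.9% of all tested genes, and N1 and T1 in 7 of 10, beside 83.0%. The sum of muscle markers was highest and that of osteoblast markers lowest in N8 and N9. The 8 chondrocyte markers summed to 2.88 to 93 FPKM in non-tumor and 129 to 718 in OSA tumor. The 3 adipocyte markers found, of 5, summed to 1.57 to 34.8 and 0.897 to 1.27. Neither sum overlapped between the groups. Of the single markers, *SOX9*, *MATN3*, *HAPLN1* and *PLIN1* did not overlap either, while the others did. *ACAN* was at 8.59 FPKM in T3 and 41.6 in N1. Over all tested genes, 3.04% had every tumor sample above every non-tumor sample and 2.81% the reverse. The part of these cell types in the differences was not tested.

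**Figure D1:**
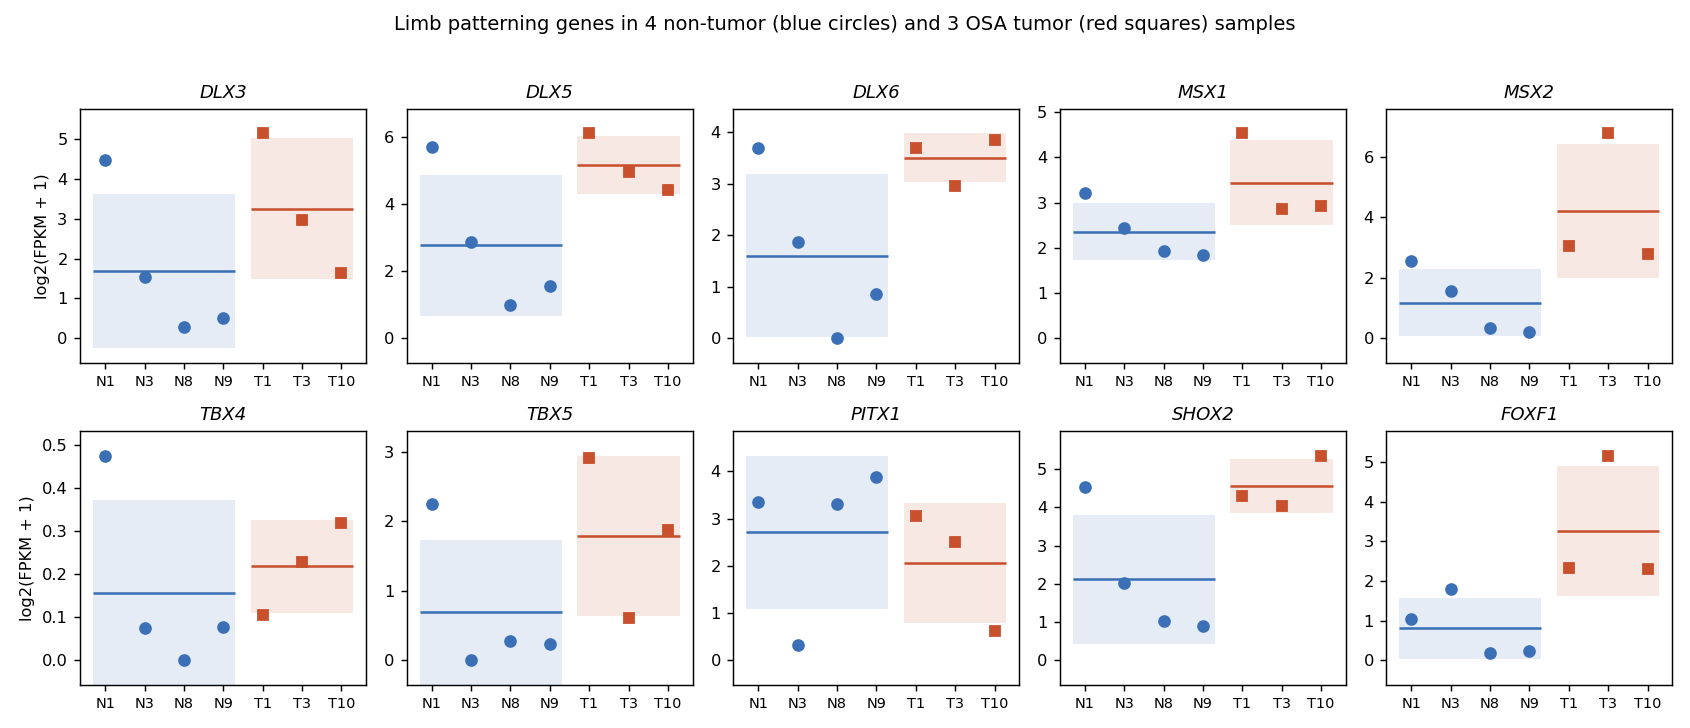
Each panel plots 1 gene as log2(FPKM + 1) in the 7 samples, with blue circles for non-tumor and red squares for OSA tumor; lines are group means and shaded bands 1 SD. N1 stands with the tumor samples in the panels of *DLX3*, *DLX5*, *DLX6*, *SHOX2* and *TBX5*, and T3 stands above the other samples in *MSX2* and *FOXF1*.

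*DLX5* (ENSCAFG00000002191, chromosome 14 from 22080555 to 22085230 of CanFam3.1) was the most abundant DLX gene of the 3. It was at 0.972 FPKM in N8, 1.92 in N9, 6.26 in N3 and 50.8 in N1, against 20.5 in T10, 29.7 in T3 and 67.9 in T1. N1 exceeded T3 and T10, so the groups overlapped, while the other non-tumor samples lay below each tumor sample. Non-tumor averaged 15.0 ± 24 FPKM (SD, n = 4), and OSA tumor averaged 39.4 ± 25.1 FPKM (SD, n = 3). The log2 fold change was 2.39 (standard error 1.04, limma unadjusted p = 0.0456, two-sided exact permutation p = 0.171; the smallest exact p of this design is 0.0571). Of the 7 fits that each left out 1 sample, the call held in that without N1, where the log2 fold change was 3.36, and was lost in the other 6, the lowest value being 1.79 without N8. It was also lost without the filter (limma unadjusted p = 0.0965) and with quantile normalization (limma unadjusted p = 0.0542).

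*DLX6* (ENSCAFG00000002187, chromosome 14 from 22066067 to 22070096) lies 10.5 kb from *DLX5* in the same cluster. Its level was 0.809 FPKM in N9, 2.67 in N3 and 11.9 in N1 and was listed at 0 in N8, against 6.82 in T3, 12 in T1 and 13.4 in T10. N1 and T1 were nearly equal, and N8 was again the lowest. The means were 10.8 ± 3.48 FPKM (SD, n = 3) against 3.85 ± 5.50 FPKM (SD, n = 4), and the log2 fold change was 1.90 (standard error 0.82, limma unadjusted p = 0.0445, exact permutation p = 0.114). The call was lost in the same 6 fits as that of *DLX5*, down to 1.37 without N8, and also with a pseudocount of 0.1 or 0.01, without the filter and after rescaling to a common sum. In the 6 samples where *DLX6* was above 0, *DLX5* was 1.52 times (T10) to 5.65 times (T1) as high. The order of the samples thus differed between these neighbours, *DLX5* being highest in T1 and *DLX6* in T10.

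*DLX3* (ENSCAFG00000016977) shares an interval on chromosome 9, from 25882360 to 26122588, with 6 other listed genes, its neighbour *DLX4* among them. *DLX3* was at 0.213 FPKM in N8, 0.412 in N9, 1.88 in N3 and 21.4 in N1, and at 2.10 in T10, 6.86 in T3 and 34.4 in T1. N1 and T1 stood far above the rest in both groups. OSA tumor averaged 14.5 ± 17.4 FPKM (SD, n = 3) and non-tumor 5.97 ± 10.3 FPKM (SD, n = 4). The log2 fold change of 1.56 (standard error 1.13) did not pass (limma unadjusted p = 0.199, exact permutation p = 0.343), and it was 2.48 with a call without N1 but 0.25 without N8 and N9. *DLX3* is also a gene of skin and hair. The 8 keratinocyte markers summed to 8.67 FPKM in N1 and 10.1 in T1, and to 10.6 to 49.9 in the other 5 samples. Of them *KRT5* and *KRT14* were listed at 0 in N1, T1, N8, N9 and T10, while *KRT10*, *DSP*, *EPCAM* and *TP63* were above 0 in every sample. The part of skin cells in the level of *DLX3* was not tested. *DLX4*, in the same interval, rose, with 11.6 FPKM in T10, 26.5 in T3 and 26.6 in T1 against 0.359 in N9, 0.927 in N8, 3.98 in N3 and 19.6 in N1 (log2 fold change 2.39, standard error 0.89, limma unadjusted p = 0.024). The call of *DLX4* was lost without N8, N9, T1 or T3. The other pair, *DLX1* and *DLX2*, fell under the filter, with at most 2.07 FPKM and 1.4 FPKM in any sample.

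*MSX2* (ENSCAFG00000016731, chromosome 4 from 38001359 to 38007407) had the largest fold change of the 10 genes. It was at 5.93 FPKM in T10, 7.27 in T1 and 108 in T3, against 0.146 in N9, 0.271 in N8, 1.95 in N3 and 4.90 in N1. The 3 tumor samples all lay above the 4 non-tumor samples, as in 3.04% of all tested genes (2.81% had the reverse), but T10 exceeded N1 only slightly and T3 held 89.1% of the tumor sum. The means were 40.3 ± 58.5 FPKM (SD, n = 3) and 1.82 ± 2.22 FPKM (SD, n = 4). The log2 fold change was 3.04 (standard error 1.01, limma unadjusted p = 0.0141, exact permutation p = 0.0571, the smallest possible). Without T3 it was 1.75 and no longer passed (limma unadjusted p = 0.052); the other 6 fits without 1 sample kept the call, at up to 3.74.

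*MSX1* (ENSCAFG00000015705, chromosome 3 from 70232061 to 70236572) varied least among the 9 tested genes. Its FPKM were 2.60 in N9, 2.79 in N8, 4.44 in N3 and 8.32 in N1, and 6.28 in T3, 6.59 in T10 and 22.1 in T1. T1 was the highest sample, and N1 lay above T3 and T10. OSA tumor averaged 11.7 ± 9.04 FPKM (SD, n = 3) and non-tumor 4.54 ± 2.65 FPKM (SD, n = 4). With a log2 fold change of 1.08 (standard error 0.59) it did not pass (limma unadjusted p = 0.1, exact permutation p = 0.171), and it passed in 0 of the 7 fits without 1 sample. The ratio of the paralogs set T3 apart: *MSX2* was 17.2 times as high as *MSX1* in T3, and between 0.0563 (N9) and 0.9 (T10) times as high in the other 6 samples.

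*SHOX2* (ENSCAFG00000008904) lies on chromosome 23 from 51482718 to 51492566, in an interval that covers 2 listed genes, the other of which was at 0 in every sample. It was at 15.2 FPKM in T3, 18.6 in T1 and 39.8 in T10, against 0.859 in N9, 1.03 in N8, 3.04 in N3 and 21.9 in N1. T10 was the highest sample, and N1 lay above T1 and T3. OSA tumor averaged 24.6 ± 13.3 FPKM (SD, n = 3) and non-tumor 6.72 ± 10.2 FPKM (SD, n = 4). The log2 fold change was 2.44 (standard error 0.87, limma unadjusted p = 0.0193, exact permutation p = 0.171). The call was lost without N8, N9 or T10, and the values of the 7 fits ran from 2.04 to 3.24. Its relative *SHOX*, on the X chromosome, did not exceed 0.466 FPKM in any sample.

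*FOXF1* (ENSCAFG00000019918, chromosome 5 from 66341523 to 66347925) was at 3.94 FPKM in T10, 4 in T1 and 34.9 in T3, against 0.136 in N8, 0.168 in N9, 1.04 in N1 and 2.48 in N3. All 3 tumor samples lay above all 4 non-tumor samples, and N1 was here lower than N3. The means were 14.3 ± 17.8 FPKM (SD, n = 3) and 0.957 ± 1.10 FPKM (SD, n = 4), with 81.5% of the tumor sum in T3. The log2 fold change was 2.45 (standard error 0.80, limma unadjusted p = 0.0124, exact permutation p = 0.0571). *FOXF1* was the 1 gene of the 10 that kept its call in all 7 fits without 1 sample, between 1.5 without T3 and 2.93 without T10. These fits kept the filter set on all 7 samples, which *FOXF1* passed through its tumor values alone, so they do not test its inclusion. Without N8 and N9 it was 1.85 (limma unadjusted p = 0.122) and did not pass.

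**Figure D2:**
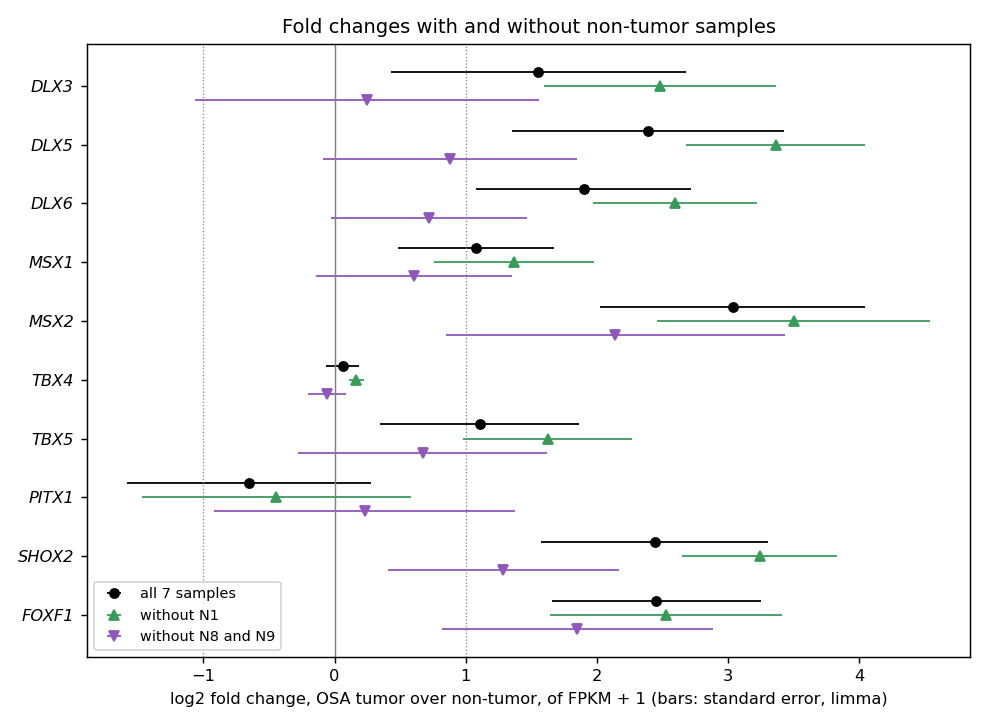
Log2 fold change of each gene, OSA tumor over non-tumor, on the log2(FPKM + 1) scale, with limma's standard error as bars, for all 7 samples (black), without N1 (green) and without N8 and N9 (purple); dotted lines mark a fold change of 2. Leaving out N1 moved *DLX5* from 2.39 to 3.36 and leaving out N8 and N9 moved it to 0.88, while *FOXF1* went from 2.45 to 2.53 and 1.85.

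The forelimb and hindlimb genes did not separate tumor from non-tumor, and they divided the samples in another way. *TBX5* (ENSCAFG00000009189, chromosome 26 from 11464129 to 11508154) was at 0.175 FPKM in N9, 0.208 in N8 and 3.74 in N1 and listed at 0 in N3, against 0.520 in T3, 2.66 in T10 and 6.48 in T1. N1, T1 and T10 thus formed the higher range and the other 4 samples stayed at or under 0.520 FPKM. OSA tumor averaged 3.22 ± 3.02 FPKM (SD, n = 3) and non-tumor 1.03 ± 1.81 FPKM (SD, n = 4). Its log2 fold change of 1.11 (standard error 0.76) did not pass (limma unadjusted p = 0.177, exact permutation p = 0.286), but was called at 1.62 without N1. With a pseudocount of 0.1 or 0.01 in place of 1 it was 2.40 and 3.41, still without a call.

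*PITX1* (ENSCAFG00000001065, chromosome 11 from 23069657 to 23075184) was at 0.247 FPKM in N3, 8.88 in N8, 9.17 in N1 and 13.8 in N9, and at 0.538 in T10, 4.67 in T3 and 7.345 in T1. It was the 1 gene of the 10 that was highest in N9, and the 2 low samples, N3 and T10, belonged to different groups. OSA tumor averaged 4.18 ± 3.43 FPKM (SD, n = 3) and non-tumor 8.04 ± 5.67 FPKM (SD, n = 4). The log2 fold change was -0.65 (standard error 0.93, limma unadjusted p = 0.499, exact permutation p = 0.514), and its sign turned without T10 (0.07) and without N8 and N9 (0.23).

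*TBX4* (ENSCAFG00000017740, chromosome 9 from 35166353 to 35195979), the hindlimb T-box gene, was near the limit of detection in every sample. It was at 0.0532 FPKM in N3, 0.0546 in N9 and 0.390 in N1 and listed at 0 in N8, and at 0.0757 in T1, 0.172 in T3 and 0.247 in T10. Allowing for the depth of each sample relative to N1, these values are whole multiples (within 0.15) of that in N9: 11 times it in N1, 2 in N3, 2 in T1, 6 in T3 and 10 in T10. If the step is 1 fragment, they stand for that many fragments. On the fit without the filter its log2 fold change was 0.06 (standard error 0.13, limma unadjusted p = 0.647), and with a pseudocount of 0.1 or 0.01 it was 0.47 and 1.32, without a call.

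Set side by side, T10 had *TBX5* at 2.66 FPKM with *PITX1* at 0.538, a *PITX1* to *TBX5* ratio of 0.202. N8 and N9 had the reverse, with *PITX1* 42.6 times and 79.3 times as high as *TBX5*. In N1 and T1 both genes were present, at ratios of 2.46 and 1.13. T3 had *PITX1* above *TBX5* by a factor of 8.99. N3 had *PITX1* at 0.247 FPKM and *TBX5* listed at 0, so no ratio was formed. Of the samples that share a number in their labels, N1 and T1 were within a factor of 2 of each other in both genes, while *PITX1* was at 4.67 FPKM in T3 and 0.247 in N3. The labels name no limb, so the limb of origin and the group cannot be told apart in these genes.

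Other genes that mark the hindlimb gave a further ordering. *HOXC10*, a homeobox gene of the lower body axis and hindlimb, was at 8.88 FPKM in N8, 7.19 in N1, 0.738 in N3 and listed at 0 in N9, against 1.56 in T10, 5 in T3 and 7.16 in T1. Its low samples included N3 and T10, as for *PITX1*, but N9, which had the most *PITX1*, had *HOXC10* listed at 0. *HOXC11* was listed at 0 in N9 and reached 3.54 FPKM in N1, and *ISL1*, which acts early in the hindlimb field, reached 1.74 FPKM in T3 and at most 0.710 elsewhere. None of the 3 passed the test, with log2 fold changes of 0.54, 0.33 and 0.33, *ISL1* lying under the filter.

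N8 and N9 also stood apart in *TBX15* and *PITX3*, which act in muscle, among other tissues, and are named here after their values were seen. *TBX15* was at 43.4 FPKM in N8 and 75.6 in N9 and between 1.09 and 4.4 in the other 5 samples. *PITX3* was at 3.96 FPKM in N8 and 1.82 in N9 and at most 0.133 elsewhere. *PITX1* was also at 9.17 FPKM in N1 and 7.345 in T1, where the muscle markers summed to 83.0 and 8.02 FPKM. The part of muscle in the level of *PITX1* was not tested.

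**Figure D3:**
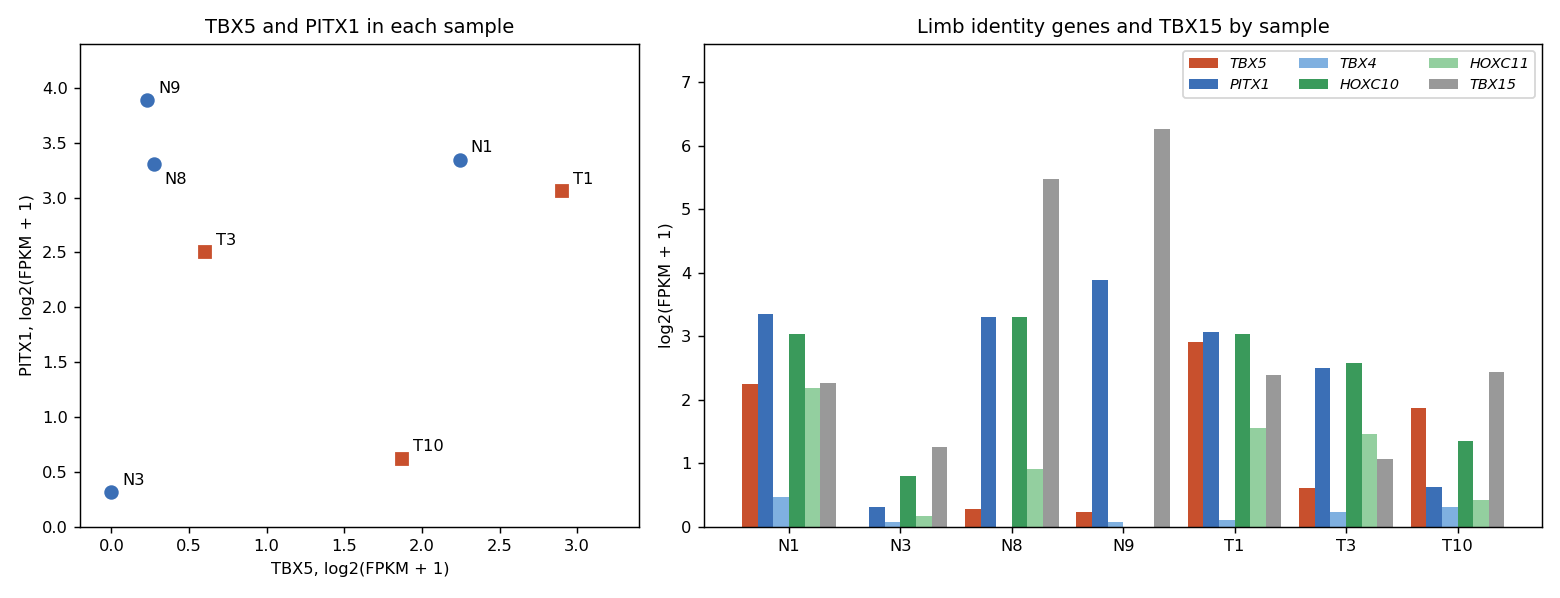
Left, *TBX5* against *PITX1* as log2(FPKM + 1), 1 point per sample (blue circles non-tumor, red squares OSA tumor). Right, bars of log2(FPKM + 1) for 6 genes in each sample; T10 has *TBX5* with little *PITX1*, N8 and N9 have *PITX1* and *TBX15* with little *TBX5*, N1 and T1 have both *TBX5* and *PITX1*, and *TBX4* is low in all 7.

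T-box and forkhead genes next to members on the chromosome did not share their pattern in every case. *TBX2*, 38.3 kb from *TBX4*, was at 19.5 FPKM in N1 and 27.1 in T1 and at most 1.87 in the other 5 samples (log2 fold change 0.28). *TBX3*, 188 kb from *TBX5*, was highest in T1 at 11.6 FPKM and, among non-tumor samples, in N1 at 5.89, as *TBX5* was, but stood at 9.63 in T3 and 1.72 in T10, where *TBX5* was at 0.520 and 2.66 (log2 fold change 1.19). *FOXC2* and *FOXL1* lie 45.8 kb and 56.9 kb from *FOXF1*. *FOXC2* was at 30.7 FPKM in T1, 16.2 in N1 and 4.05 in T3, and *FOXL1* was at 4.4, 2.35 and 1.87 in these, so both were highest in T1 and not in T3, where *FOXF1* peaked. None of these 4 neighbours passed the test (limma unadjusted p between 0.127 and 0.814).

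Of 60 related limb and bone genes listed, 54 were found and 42 were tested; 7 rose in OSA tumor, 0 fell and 35 did not pass, beside the 3.28% and 3.58% over all tested genes. Their median log2 fold change was 1.26. *FOXL1*, *MEIS2*, *GLI2* and *GREM1* passed the filter only through their tumor values, so this count and median are also a description. The 7 were *DLX4*, *FOXF2*, *SALL1*, *HAND2*, *PRRX1*, *PRRX2* and *BMP2*. *SALL1*, a zinc finger factor of the limb bud, was at 3.7 FPKM in T10, 6.89 in T1 and 15.5 in T3, against 4.07 in N1, 0.765 in N3, 0.0261 in N9 and 0 as listed in N8 (log2 fold change 2.29, standard error 0.72, limma unadjusted p = 0.0105). It kept its call in all 7 fits without 1 sample.

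*BMP2*, a bone morphogenetic protein that induces MSX and DLX genes, was at 15.6 FPKM in T10, 11.2 in T3 and 10.5 in T1, against 1.52 in N8, 2.15 in N9, 4.31 in N1 and 7.69 in N3. Its groups did not overlap and its tumor values lay close together (log2 fold change 1.60, standard error 0.54, limma unadjusted p = 0.0159); the call was lost without T10 and after rescaling to a common FPKM sum. *PRRX1* and *PRRX2*, homeobox genes of limb mesenchyme, had log2 fold changes of 2.09 and 2.64, with N1 within the tumor range at 69.4 and 33.7 FPKM, and *PRRX2* shares its interval with other listed genes. *HAND2*, which sets up the posterior side of the limb bud, was listed at 0 in N8 and N9 and was at 9.17 FPKM in N1 and 5.54 to 11.4 in OSA tumor (log2 fold change 2.05). Of the 7 fits without 1 sample, 3 kept the call of *PRRX1*, 2 that of *PRRX2* and 1, that without N1, that of *HAND2*. Without N8 and N9, 0 of the 42 related genes were called, beside 0.600% of all tested genes called higher, and without N1 20 were called higher, beside 6.31%.

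Of 6 osteoblast genes listed as targets of MSX and DLX factors, 5 were found and none of these 5 passed. *RUNX2* was at 6.22 FPKM in N8, 11.3 in N9, 60.1 in N3 and 142 in N1, against 45.5 in T3, 116 in T10 and 130 in T1 (log2 fold change 1.59, standard error 1.00). *SP7* was at 99.4 FPKM in N1 and 104 in T1 and at 7.59 or less in the other 5 samples. The bone matrix genes *IBSP*, *SPP1* and *BGLAP* had log2 fold changes of 2.38, 1.54 and -0.45. *BGLAP* was at 4.78 FPKM in T10, 15.9 in T3 and 486 in T1, against 7.90 in N8, 27.6 in N9, 138 in N3 and 167 in N1, so the lowest and the highest sample were both tumor. *DLX5* per FPKM of *RUNX2* was 0.104 in N3, 0.156 in N8, 0.169 in N9 and 0.358 in N1, and 0.177 in T10, 0.522 in T1 and 0.653 in T3. On this scale the tumor samples were above N3, N8 and N9, but T10 only slightly, and N1 lay between T10 and T1. *MSX2* per FPKM of *RUNX2* was 2.37 in T3 and between 0.0129 and 0.0559 in the other 6 samples.

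T3 carried further genes at levels not seen in the other samples, which but for *FOXF2* were picked after their values were seen. *FOXF2*, the paralog of *FOXF1*, rose, with 10.1 FPKM in T10, 12.8 in T1 and 111 in T3 against 12.1 in N1, 4.78 in N3 and a listed 0 in N8 and N9 (log2 fold change 3.13, limma unadjusted p = 0.0195); its call was lost without T3, at 2.07, and without N8 or N9. *BMP7* was at 64.9 FPKM in T3 and at most 4.99 elsewhere. The hedgehog pathway genes *GLI1* and *PTCH1* were at 169 and 46.0 FPKM in T3, while their highest values elsewhere were 23.9 (N1) and 29.1 (T1), and the ligand gene *SHH* was at 0.145 FPKM in T3. The related factors *GLI2* and *GLI3* were not highest in T3, at 0.413 and 2.75 FPKM there against 3 and 4.68 in T1. The fibroblast growth factor gene *FGF10* was at 23.3 FPKM in T3 and at most 5.46 elsewhere. The keratinocyte marker sum was also highest in T3, at 49.9 FPKM against 8.67 to 23.3 in the other 6. *DSP* (23.5 FPKM) and *KRT10* (18.5) made up most of it, and *KRT5* (3.28), *KRT14* and *DSG3* were also highest in T3. *TP63*, *EPCAM* and *KRT1* were higher in other samples, with *TP63* at 12.7 FPKM in N9 against 0.585 in T3. The part of other cell types in these levels was not tested.

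**Figure D4:**
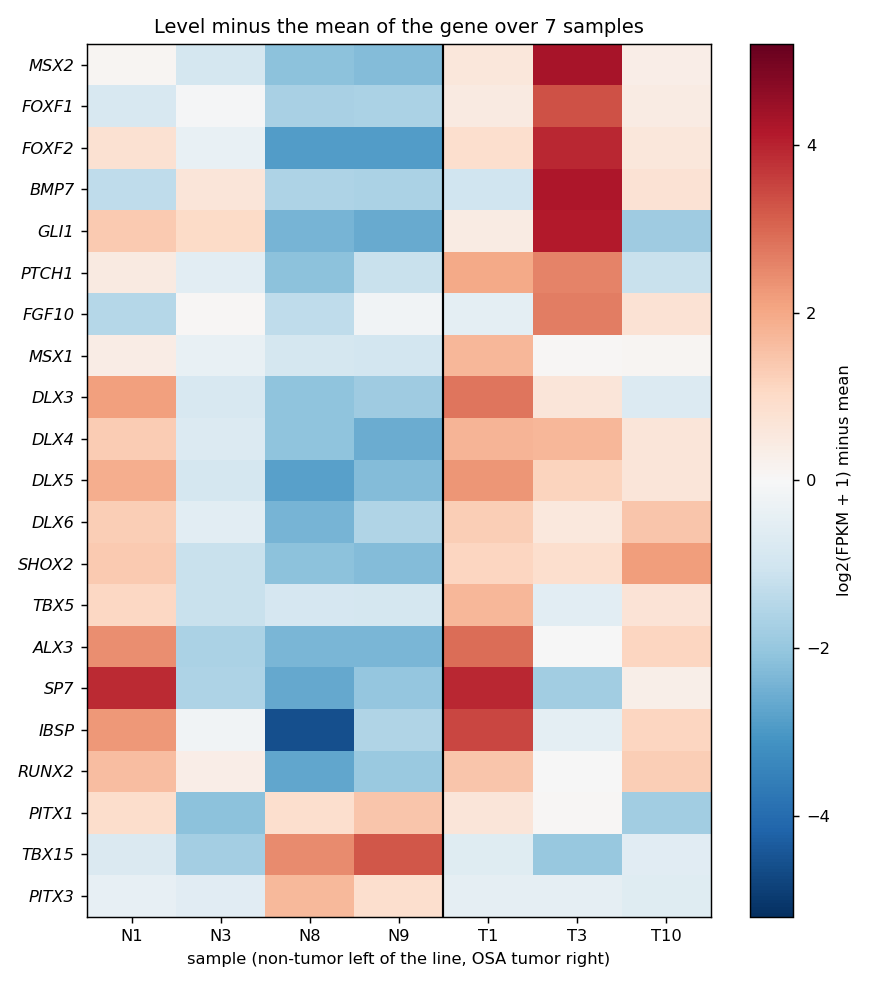
Heat map of log2(FPKM + 1) minus the mean of the gene over the 7 samples, for 9 of the 10 genes and 12 related genes (rows) in each sample (columns, non-tumor left of the line). Genes at the top are highest in T3. Those in the middle are highest in N1 and T1, with T10 for *DLX6* and *SHOX2*, but *DLX4* is highest in T1 and T3. The 3 at the bottom include *TBX15* and *PITX3*, which are highest in N8 and N9.

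The likeness of profiles was measured as the root-mean-square difference of centred log2(FPKM + 1) values over the 7 samples, as a description. Between pairs of the 9 tested genes it was smallest for *DLX6* and *SHOX2* (0.48), then *MSX1* and *TBX5* (0.51), *DLX3* and *DLX5* (0.67), *MSX2* and *FOXF1* (0.68) and *DLX5* and *DLX6* (0.68). Profiles were not scaled by their spread, so genes that vary little can come out close. The SD over the 7 samples was 0.91 for *MSX1* and 1.16 for *TBX5*, but 2.21 for *MSX2* and 1.71 for *FOXF1*. Over all tested genes with a symbol, *DLX5* was most like *MFAP2* (0.23), a gene of elastic microfibrils. *DLX6* was most like *UGGT2* (0.20) and *CYP26B1* (0.23), which encodes an enzyme that degrades retinoic acid, and *DLX3* like *CLDN10* (0.25) and the neighbour of *FOXF1*, *FOXC2* (0.31).

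*FOXF1* was most like *SEMA3D* (0.14), a semaphorin gene that was at 44.6 FPKM in T3 and 0.647 to 5.92 in the other 6 samples, and then *RABEPK* (0.39). *MSX2* was most like *FOXF2* (0.55) and *RABEPK* (0.55), all highest in T3. *SHOX2* was nearest to *FKBP7* (0.33) and *CADM1* (0.37), *TBX5* to *NAV1* (0.22) and *HSD11B1L* (0.23), and *MSX1* to *FAM83H* (0.17) and *EVA1A* (0.24). *PITX1* had the least close partners but for *MSX2*, *SLC9A3R2* (0.45) and *AMOT* (0.52), both of them lowest in N3 and T10 like *PITX1* itself.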

How the data were processed

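Per the labels and the study's methods, RNA from 4 non-tumor and 3 OSA tumor samples was sequenced, and the authors used CASAVA, Trim Galore, FastQC, cutadapt, TopHat (Tophat2 in the methods) and Cuffdiff on the CanFam3.1 genome; version numbers, and whether strand was used in counting, are not given in the sources used here. The authors deposited FPKM for 24580 genes in each sample, with an interval per gene. Columns with the authors' own fold changes and p-values were not used. Read counts were not analysed here, and the study's methods give only an approximate read number, without a value per sample. Depth was therefore inferred relative to N1. Steps between low FPKM values put it at 0.544 (N8) to 1.44 (T10) times that of N1. Depth limits genes under about 1 FPKM most.

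Groups followed the labels. FPKM values were compared as log2(FPKM + 1) with limma 3.58.1 in R 4.3.3 (empirical Bayes with a trend) over the 13507 genes whose mean reached 1 FPKM; 11073 genes lay under this filter. *TBX4* was read from a fit without it. Benjamini-Hochberg adjustment covered all tested genes, and a two-sided exact permutation test over 35 splits stood beside each gene. The fit was tested on simulated data. Alternatives covered the pseudocount, filter, scaling, trend, sample weights, a block for the sample number and leaving out each sample; leaving out N8 and N9 together was chosen after seeing the data.

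The 10 genes and the lists of related and marker genes were chosen with earlier results of these data known. Related genes were named by rule if they were called, were hindlimb partners or bone targets, lay within 500 kb of one of the 10 in the same family, or were the 2 most alike in profile to one of the 9 tested; any other was chosen after its values were seen, as were *DLX1*, *DLX2*, *SHOX* and *SHH*. Some genes that these rules name are not reported here. Related and marker symbols without a match in the table were not analysed here. The marker sums for fibroblasts were 343 to 2241 FPKM in non-tumor and 469 to 7397 in OSA tumor, for endothelium 58.9 to 296 and 19.3 to 77.6, for macrophages 31.8 to 217 and 41.4 to 472 and for smooth muscle and pericytes 12.9 to 121 and 8.69 to 48.8.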

Additional observations from a re-analysis of the deposited data

Results flagged for a closer look

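On the log2(FPKM + 1) scale, 1 of the 4 non-tumor samples lay far from the other 3 in 3 of the 10 genes, with a gap to its nearest neighbour, as a share of the whole range, above Dixon's limit for 4 samples. For *TBX5* it was N1, the highest at 3.74 FPKM, with a share of 0.878. For *TBX4* it was also N1, at 0.390 FPKM, with a share of 0.839. For *PITX1* it was N3, the lowest at 0.247 FPKM, with a share of 0.836. These shares hold for the log scale and differ on FPKM itself. Chance alone marks about 1 in 20 such groups. The 3 tumor samples are too few for this check.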

How the results depend on the processing

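Of the 10 genes, 5 were called in the fit as reported, 3 without the filter, 0 without N8 and N9, and 2 to 7 when 1 sample was left out. Of the related genes 7 were called, 3 without the filter, 15 with sample weights, 0 without N8 and N9, and 2 to 20 with 1 sample left out. Over all tested genes 926 were called, 617 without the filter, 1857 with sample weights, 184 without N8 and N9, and 319 to 1997 with 1 sample left out. The cause was not tested, except that fits without samples hold fewer of them. *PITX1*, at -0.65, ranged from -1.45 to 0.0665 when 1 sample was left out, being positive without T10, and was 0.23 without N8 and N9, where *TBX4* turned from 0.06 to -0.0573. Samples numbered 1 and 3 occur in both groups. The study calls the non-tumor tissue matched, but the labels do not say that a number marks a dog. Deviations from the group means correlated at 0.42 for N1 and T1 and 0.21 for N3 and T3, against -0.27 to 0.14 for other pairs. With the number as a fixed block over those 4 samples, 1 of the 10 genes (*FOXF1*), 2 of the related genes and 241 of all genes were called, and *PITX1* was at 0.95 and *TBX4* at -0.11; the calls of *MSX2* (2.85), *DLX5* (1.25), *DLX6* (0.55) and *SHOX2* (0.89) were lost, in a fit with fewer samples. With a random block over all 7 samples, 4 of the 10 (*DLX6* being lost), 12 related and 1062 genes were called. Genes near or under 1 FPKM, *TBX4* above all, are limited by depth.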
